A study of Mus musculus with 6 samples.

Results

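The 87 genes described here are the collagens, laminins, fibrillins, fibulins, nidogens, tissue inhibitors of metalloproteinases (TIMPs) and matrix metalloproteinases (MMPs) on a mouse expression array, with Fn1, Sparc, Dcn, Lum, Bgn and Lox. They were found by gene symbol among 18194 genes that have a probe set annotated to that gene alone, and comprise 42 collagens, 10 laminins, 7 fibrillins, fibulins and nidogens, 4 TIMPs, 18 MMPs and 6 other matrix genes. Each gene is represented by 1 probe set, a group of short probes that reads 1 transcript region, namely the one with the highest mean log2 signal over the 4 arrays of shRNA-transduced cells. That mean weighs both shRNA groups alike, so the level on these arrays was used to choose the probe sets and the difference between the shRNA groups was not. The level against the control vector is touched by the choice, because a probe set bright on the shRNA arrays was preferred.

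The extracellular matrix is the protein network outside cells. Fibrillar collagens form the tensile fibres of connective tissue, while type IV collagens and laminins form separate sheets, linked by nidogens, that make up basement membranes. In the testis such a basement membrane surrounds each seminiferous tubule between the Sertoli cells inside and the peritubular myoid cells outside, and fibroblasts of the interstitium also lay down collagen. MMPs cut matrix proteins and TIMPs inhibit them.

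Expression was profiled in cells labelled as elongating spermatids, the late haploid germ cells that are remodelled into sperm, on 6 Affymetrix 3' expression arrays. Lentiviral vectors that also encode GFP were delivered to the testes of ICR mice (labelled wildtype and adult) at 5 weeks of age, and GFP+ cells were sorted from isolated germ cells 1 week later. The 3 groups were the empty control vector pSilencer, an shRNA against Caf1 (Cnot7), a deadenylase that shortens the poly(A) tails of mRNAs, and an shRNA against Miwi (Piwil1), a PIWI protein that binds piRNAs, with 2 arrays each. All groups therefore share the vector backbone, GFP and the sort. The labels call the arrays biological replicates, and how many animals each stands for was not given in the sources used here, so the p-values measure the spread between these arrays only. The sorted population is a bulk sample, in which fewer cells of a type and less RNA per cell cannot be told apart.

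The control arrays stood apart from the others. On log2 signals the replicates correlated at r = 0.451 for the control vector against 0.983 for shCaf1 and 0.982 for shMiwi (across probe sets, which are not independent). Every array had been scaled to the same trimmed mean of 500, and the spiked-in hybridization control transcripts were then 82.3 and 16.2 times their mean over the shRNA arrays on control replicates 1 and 2, against 0.806 to 1.20 on the shRNA arrays. The summed signal of 10 elongating spermatid markers (such as Prm1 and Tnp1) was 2824 on control replicate 1, 698683 on control replicate 2 and 123016 to 201119 on the shRNA arrays, so control replicate 1 had the markers of the labelled cell type far below the other arrays. Piwil1 had signals of 1445360.0 and 292542 with the control vector, 21881 and 22442 with shCaf1 and 9779.6 and 10392 with shMiwi, and it was lower in shMiwi than in shCaf1 with a log2 difference of -1.14 ± 0.09 (adjusted p = 0.00105) in limma. Cnot7 had signals of 2003570.0 and 188877 with the control vector, 3633 and 4329.8 with shCaf1 and 4365 and 5012 with shMiwi, with a difference of 0.24 ± 0.13 (adjusted p = 0.307) that did not pass in limma. On both control arrays these genes exceeded every signal of the shRNA arrays, whose maxima were 25812 to 35696. Each gene was far below control in both shRNA groups, so these falls are not read as a measure of knockdown. Results were therefore taken first from shMiwi against shCaf1, which uses no control array, and then against the control vector.

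Matrix genes were higher in shMiwi-transduced than in shCaf1-transduced cells far more often than lower. Of the 87 genes, 67 passed a filter on low signal (mean log2 over the 6 arrays above the 40th percentile) and were tested, and 20 did not pass. The test was limma with an intensity trend on log2(signal + 16), with Benjamini-Hochberg adjustment over all 27022 tested probe sets and a threshold of 0.05. In it 17 members were higher in shMiwi and 1 was lower, while 49 were not called. Among all tested probe sets 3.81% were called higher and 3.52% lower, against 25.4% and 1.49% of the tested members, and with 1 probe set per named gene the background was 4.47% higher and 4.83% lower. The median log2 difference was 0.26 over the tested members and 0.02 over all tested probe sets. The higher genes were collagen chains of fibrils (Col3a1, Col1a2, Col1a1, Col5a2), of basement membranes (Col4a1, Col4a2, Col4a3, Col4a4, Col4a5, Col18a1) and of beaded filaments (Col6a2, Col6a3), the laminin chains Lama1, Lama2 and Lamb2, and Nid1 and Lum. Their fold differences ranged from 1.64 to 3.80.

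The arrays of the shRNA groups did not overlap for 33 members with shMiwi above shCaf1, 49.3% of those tested, and for 10 with shMiwi below, 14.9%, where 28.8% and 25.3% of all tested probe sets did not overlap. A difference of at least 2-fold without overlap was found in 12 members upward, 17.9% of those tested, and in 0 downward, against 1.2% and 1.32% of all probe sets. With 2 arrays per group an exact permutation test of 1 gene cannot go below p = 0.333, so all calls rest on the spread that limma pools across probe sets. Other settings of the fit ended them. Without the intensity trend 0 members were called in limma (background 0.0074% higher), with adjusted p of 0.0825 to 0.163 for the 17 genes, and with all 6 arrays in 1 model 0 were called (background 0.0%). At an unadjusted p under 0.05 there were 27 members without the trend (40.3%, background 20.3%) and 8 in the 6-array model (11.9%, background 0.977%).

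**Figure D1:**
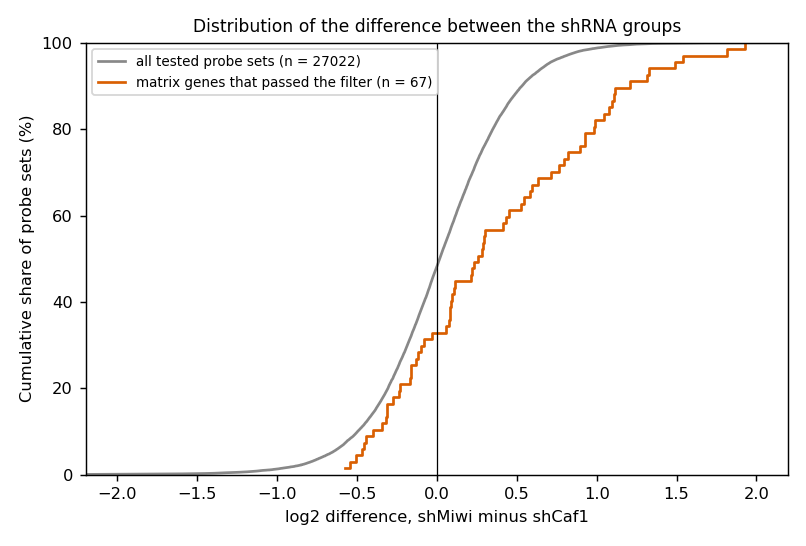
Cumulative share of probe sets (y axis, percent) against the log2 difference of shMiwi minus shCaf1 (x axis), for all 27022 tested probe sets (grey) and the 67 tested matrix genes (orange). The orange curve lies to the right of the grey one, with medians of 0.26 and 0.02, and the gap is widest above 0.

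**Figure D2:**
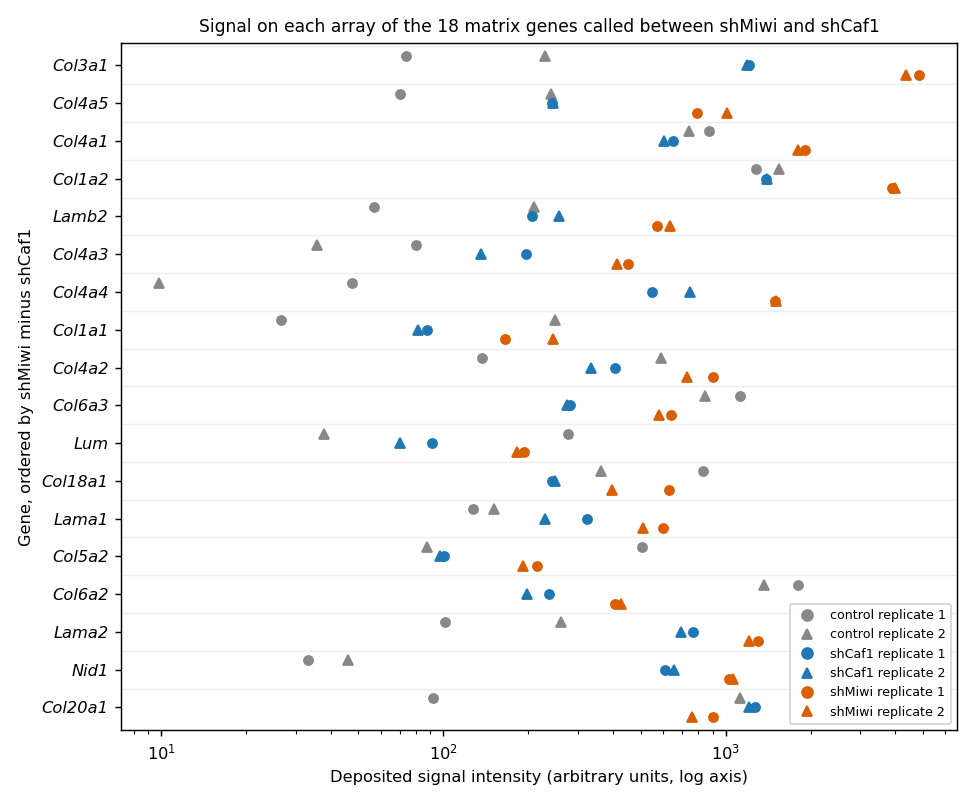
Deposited signal (x axis, log scale, arbitrary units) on each of the 6 arrays for the 18 matrix genes called between shMiwi and shCaf1, with circles for replicate 1 and triangles for replicate 2. Orange shMiwi points lie to the right of blue shCaf1 points for the 17 genes called higher and to the left for Col20a1, while the grey control points are spread widely.

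Among the fibrillar collagens, 4 of 10 tested genes were higher in shMiwi and 0 were lower, with a median log2 difference of 0.69 over the tested ones. Col3a1, the chain of type III collagen in reticular fibres, had signals of 73.9 and 229 with the control vector, 1206 and 1188 with shCaf1 and 4863 and 4342 with shMiwi. The shMiwi arrays lay far above both shCaf1 arrays, which lay above both control arrays. The log2 difference between the shRNA groups was 1.93 ± 0.12 (adjusted p = 0.000229), a 3.80-fold difference in limma, the largest among the tested members. On the other tested Col3a1 probe set the control arrays had 491 and 197, shCaf1 130 and 112 and shMiwi 446 and 554. There shCaf1 lay below both control arrays, and shMiwi overlapped them. Col1a2, the second chain of type I collagen, the main collagen of connective tissue, had 1285 and 1550.2 with the control vector, 1386 and 1399.9 with shCaf1 and 3889 and 3987 with shMiwi. Here the shCaf1 arrays lay among the control arrays and only the shMiwi arrays stood above them, with a log2 difference of 1.49 ± 0.12 (adjusted p = 0.00072) between the shRNA groups in limma.

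Its partner Col1a1, which codes for the other chain of type I collagen, was dim, with signals of 26.5 and 248 with the control vector, 87.6 and 81.6 with shCaf1 and 165 and 245 with shMiwi. The shRNA groups did not overlap, but control replicate 2 was as high as the higher shMiwi array. Its log2 difference was 1.11 ± 0.26 (adjusted p = 0.0384) in limma. Col5a2, a chain of the type V collagen that sits inside type I fibrils, had 506 and 87.8 with the control vector, 101 and 96.9 with shCaf1 and 214 and 192 with shMiwi, and the control arrays enclosed all the others. Its log2 difference between the shRNA groups was 0.93 ± 0.22 (adjusted p = 0.0408) in limma. Col2a1, the cartilage collagen, just missed the threshold at 0.92 ± 0.25 (adjusted p = 0.0591), and Col11a2 differed by 0.06 ± 0.38 (adjusted p = 0.947).

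The promoters of the 2 fibrillar genes with the largest differences are shown because both genes were called with all 4 arrays and with any 1 left out. The windows run from 250 bases before to 50 after the annotated start, are taken from RefSeq on GRCm38.p6 and are written on the strand of the gene. Capitals mark, on either strand, the CCAAT box (the letters CCAAT), the GC box (the letters GGGCGG) and a TATA box (the letters TATAAA); none of these overlap in the windows shown.
Col3a1 (chr1:45311288-45311587, plus strand): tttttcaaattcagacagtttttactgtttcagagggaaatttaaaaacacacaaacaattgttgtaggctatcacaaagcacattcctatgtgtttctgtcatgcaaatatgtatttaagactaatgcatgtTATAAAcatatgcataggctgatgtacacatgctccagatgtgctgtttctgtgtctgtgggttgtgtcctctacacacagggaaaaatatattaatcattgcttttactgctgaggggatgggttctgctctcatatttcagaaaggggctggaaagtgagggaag
Col1a2 (chr6:4505368-4505667, plus strand): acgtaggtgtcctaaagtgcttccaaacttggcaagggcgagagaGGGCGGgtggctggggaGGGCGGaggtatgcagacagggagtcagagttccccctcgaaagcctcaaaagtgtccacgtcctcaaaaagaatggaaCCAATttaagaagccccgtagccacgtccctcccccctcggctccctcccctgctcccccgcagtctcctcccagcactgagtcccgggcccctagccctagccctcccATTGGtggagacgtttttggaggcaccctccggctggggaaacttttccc
The Col3a1 window holds 1 TATAAA, no copy of the other motifs and 0 CG dinucleotides. The Col1a2 window holds 2 CCAAT, 2 GGGCGG and 13 CG dinucleotides. These are matches of letters only, and CCAAT was found in 37.4% of all 32851 windows in the table, GGGCGG in 35.7% and TATAAA in 13.6%. Among the 71 windows of 62 members the counts were 23, 37 and 14 (32.4%, 52.1% and 19.7%).

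Of the 6 type IV collagen chains, which form the network of basement membranes, 5 were higher in shMiwi and Col4a6 was not called. The median log2 difference of the 6 was 1.26. Col4a1 had signals of 871 and 744 with the control vector, 650.0 and 607 with shCaf1 and 1914 and 1806 with shMiwi, so the shMiwi arrays stood above all the others. Its log2 difference between the shRNA groups was 1.54 ± 0.13 (adjusted p = 0.00125) in limma. Col4a2, which forms a trimer with Col4a1, had 137 and 589 with the control vector, 407 and 334 with shCaf1 and 905 and 731 with shMiwi, and control replicate 2 lay between the shRNA groups. Its difference was 1.11 ± 0.18 (adjusted p = 0.0126) in limma.

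Col4a3, Col4a4 and Col4a5 together form the other main type IV trimer, best known from the basement membrane of the kidney glomerulus. Col4a4 had signals of 47.4 and 9.85 with the control vector, 549.6 and 750.5 with shCaf1 and 1492 and 1513 with shMiwi. The control arrays were far below every shRNA array, and the shMiwi arrays lay close together above the shCaf1 arrays. The log2 difference between the shRNA groups was 1.21 ± 0.17 (adjusted p = 0.00826) in limma. On another tested Col4a4 probe set control replicate 1 (121) lay above shCaf1 replicate 1 (95.9). On a further one both control arrays (142 and 74.2) lay below every shRNA array (317 to 1509). Col4a3 had 80.0 and 35.6 with the control vector, 196 and 136 with shCaf1 and 452 and 412 with shMiwi. On this probe set the groups were ordered control, shCaf1, shMiwi without overlap. The shRNA groups differed by 1.32 ± 0.21 (adjusted p = 0.0129) in limma. On the other tested Col4a3 probe set the control arrays (163 and 113) lay above shCaf1 (48.9 and 71.5) and below shMiwi (239 and 213). Col4a5 had 70.2 and 241 with the control vector, 242 and 244 with shCaf1 and 792 and 1014 with shMiwi, where control replicate 2 and the shCaf1 arrays were level, and it differed by 1.82 ± 0.18 (adjusted p = 0.00189) in limma. On its other tested probe set both control arrays (2675 and 597) lay above the shMiwi arrays (249 and 262). Col4a6, the remaining chain, had 273 and 767 with the control vector, 90.0 and 83.4 with shCaf1 and 105 and 52.8 with shMiwi. Its shRNA groups overlapped and its difference was -0.17 ± 0.33 (adjusted p = 0.802).

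Type IV genes lie in head-to-head pairs, and the windows of 2 pairs and of Col4a4 are shown because both genes of 1 pair rose and only 1 gene of the other was called. The annotated starts of Col4a1 and Col4a2 are 21 bases apart on opposite strands, so their windows overlap, and those of Col4a5 and Col4a6 are 1343 bases apart. The sequences are from RefSeq on GRCm38.p6, with capitals as above.
Col4a1 (chr8:11312777-11313076, minus strand): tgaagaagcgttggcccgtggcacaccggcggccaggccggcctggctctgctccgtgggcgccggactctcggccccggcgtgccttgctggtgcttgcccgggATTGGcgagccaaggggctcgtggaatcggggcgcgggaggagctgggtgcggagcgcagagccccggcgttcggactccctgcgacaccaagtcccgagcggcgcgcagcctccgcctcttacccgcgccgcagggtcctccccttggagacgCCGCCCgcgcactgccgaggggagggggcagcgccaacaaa
Col4a2 (chr8:11312555-11312854, plus strand): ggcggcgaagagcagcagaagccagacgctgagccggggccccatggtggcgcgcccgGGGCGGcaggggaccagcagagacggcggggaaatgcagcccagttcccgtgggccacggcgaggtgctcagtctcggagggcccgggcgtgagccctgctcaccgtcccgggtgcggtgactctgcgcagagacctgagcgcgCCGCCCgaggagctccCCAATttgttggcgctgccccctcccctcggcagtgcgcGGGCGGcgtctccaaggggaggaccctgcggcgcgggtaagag
Col4a4 (chr1:82586800-82587099, minus strand): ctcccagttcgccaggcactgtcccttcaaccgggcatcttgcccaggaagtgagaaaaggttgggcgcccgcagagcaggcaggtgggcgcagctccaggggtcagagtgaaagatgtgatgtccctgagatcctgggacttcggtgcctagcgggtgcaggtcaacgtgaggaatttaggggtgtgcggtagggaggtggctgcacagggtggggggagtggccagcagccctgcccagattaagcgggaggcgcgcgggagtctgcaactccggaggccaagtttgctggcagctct
Col4a5 (chrX:141475169-141475468, plus strand): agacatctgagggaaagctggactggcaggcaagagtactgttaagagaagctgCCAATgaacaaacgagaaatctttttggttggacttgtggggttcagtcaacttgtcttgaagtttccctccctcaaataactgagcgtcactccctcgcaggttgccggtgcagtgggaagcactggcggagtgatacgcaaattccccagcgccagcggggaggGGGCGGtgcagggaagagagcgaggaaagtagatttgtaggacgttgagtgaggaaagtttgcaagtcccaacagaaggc
Col4a6 (chrX:141474027-141474326, minus strand): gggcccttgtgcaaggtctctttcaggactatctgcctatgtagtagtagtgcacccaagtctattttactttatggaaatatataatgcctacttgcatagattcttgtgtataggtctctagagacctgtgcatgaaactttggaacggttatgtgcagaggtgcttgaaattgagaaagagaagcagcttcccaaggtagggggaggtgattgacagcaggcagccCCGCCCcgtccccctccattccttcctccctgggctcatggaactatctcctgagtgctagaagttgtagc
The Col4a1 and Col4a2 windows are rich in CG dinucleotides, with 37 and 33. The first holds 1 GGGCGG and 1 CCAAT and the second holds 3 GGGCGG and 1 CCAAT. The GGGCGG of the Col4a1 window lies where the windows overlap and is the same site as 1 of the 3. The Col4a4 window has none of the 3 motifs and 14 CG dinucleotides. The Col4a5 window has 1 CCAAT, 1 GGGCGG and 11 CG dinucleotides, and that of Col4a6 has 1 GGGCGG and 3 CG dinucleotides. Of the 17 genes called higher, 12 have windows, 14 in all, of which 6 hold CCAAT, 9 hold GGGCGG and 1 holds TATAAA.

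Among the other basement membrane and network collagens, Col18a1, whose C-terminal fragment is endostatin, had signals of 829 and 362 with the control vector, 242 and 248 with shCaf1 and 632 and 396 with shMiwi. The shRNA groups did not overlap, while both shMiwi arrays lay within the range of the control arrays, and the difference was 0.99 ± 0.23 (adjusted p = 0.0378) in limma. Col7a1, the anchoring fibril collagen, and the network chains Col8a1 and Col8a2 were not called, with log2 differences of -0.16, 0.08 and 0.09. Of the beaded filament collagens, which link cells to the surrounding matrix, 2 of 4 tested were higher. Col6a3 had signals of 1127 and 846 with the control vector, 281 and 275 with shCaf1 and 643 and 581 with shMiwi and Col6a2 had 1810.2 and 1367 with the control vector, 236 and 199 with shCaf1 and 407 and 427 with shMiwi. In both genes the control arrays were the highest and the shCaf1 arrays the lowest of the 6. Their differences between the shRNA groups were 1.09 ± 0.16 (adjusted p = 0.00961) and 0.90 ± 0.18 (adjusted p = 0.0267) in limma. Col6a1 had a difference of 0.59 ± 0.34 (adjusted p = 0.329) and Col6a4 of -0.13 ± 0.16 (adjusted p = 0.673), and neither passed.

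The fibril-associated collagens, which lie on the surface of fibrils or near basement membranes and do not form fibrils themselves, had 1 call, and it was downward. Of 8 tested genes 0 were higher and 1 was lower, and all 8 had a log2 difference below 0, between -0.57 and -0.24, with a median of -0.36. All 8 were also below 0 with quantile normalization and with median centring, but on the scale set by the hybridization controls 4 of the 8 were above 0 and the median was 0.01. Col20a1, whose role in the testis is little described, had 91.8 and 1127 with the control vector, 1271 and 1215 with shCaf1 and 905 and 762 with shMiwi. Both shMiwi arrays lay below both shCaf1 arrays and its difference was -0.57 ± 0.15 (adjusted p = 0.0484) in limma, while on the hybridization control scale it was -0.18 and not called (adjusted p = 0.573 in limma). The call also ended with median centring, with 1 added in place of 16, without the filter, without the intensity trend, in the 6-array model and without either shCaf1 array or shMiwi replicate 2, with a negative difference each time. Col22a1, a collagen of tissue junctions, had 286 and 8228 with the control vector, 6831 and 7584 with shCaf1 and 5832 and 4802 with shMiwi. Control replicate 2 resembled the shRNA arrays and control replicate 1 did not, and the difference was -0.44 ± 0.13 (adjusted p = 0.0675). Its other 2 tested probe sets had differences of 0.53 and 0.41, so the probe sets of this gene disagreed in sign. Col16a1 had 3413 and 4032 with shCaf1 and 3588 and 2625 with shMiwi with a difference of -0.27 ± 0.16 (adjusted p = 0.347). Col19a1, another collagen of this class, had 93.4 and 95.2 with shCaf1 and 67.4 and 52.8 with shMiwi and -0.54 ± 0.29 (adjusted p = 0.287).

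Of the transmembrane collagens, Col23a1 and Col25a1 were tested and neither was called in limma or had an unadjusted p under 0.05, with log2 differences of -0.10 and -0.12 that turned positive on the hybridization control scale. Col26a1, which fits no other class, did not pass the filter, with signals of 97.9 and 149 with shCaf1 and 115 and 107 with shMiwi.

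**Figure D3:**
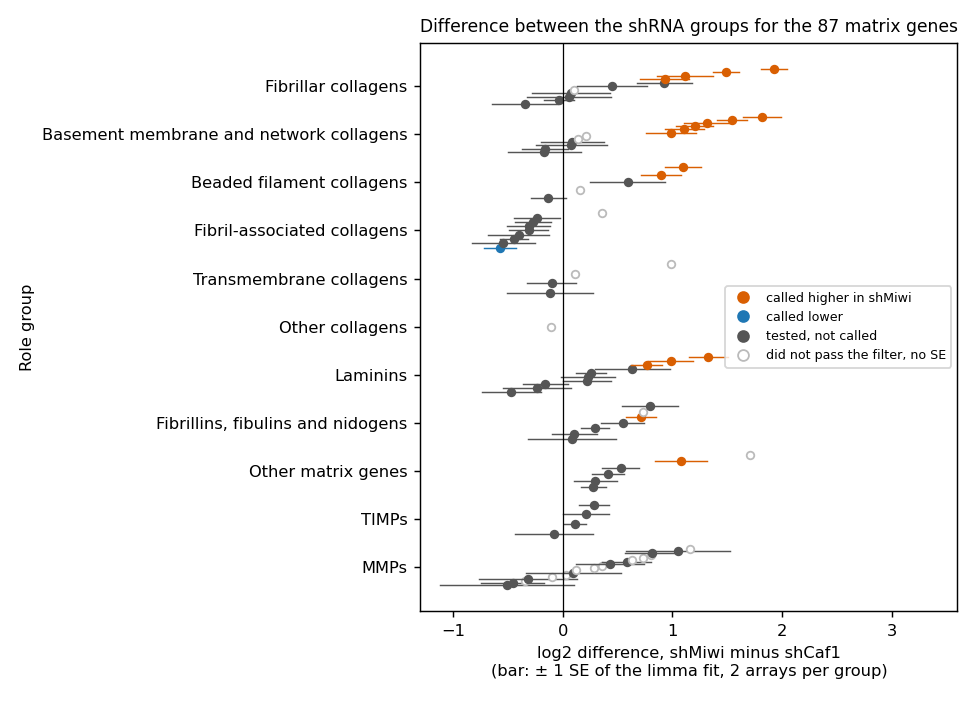
Log2 difference of shMiwi minus shCaf1 (x axis) for each of the 87 matrix genes by role group (y axis), with bars of 1 SE from limma (2 arrays per group) and open circles for the 20 genes that did not pass the filter. Called genes lie to the right of 0 in the fibrillar, basement membrane, beaded filament and laminin groups, the 8 tested fibril-associated collagens have values below 0 on this scale, and no MMP or TIMP was called.

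Laminins are trimers of an alpha, a beta and a gamma chain that form the second network of basement membranes. All 10 were tested, 3 were higher in shMiwi and 0 were lower, and the median log2 difference was 0.24. Lamb2, a beta chain, had signals of 56.7 and 210.0 with the control vector, 206 and 257 with shCaf1 and 572 and 633 with shMiwi. The shMiwi arrays were above all the others and the difference was 1.33 ± 0.18 (adjusted p = 0.00737) in limma. Lama1, an alpha chain of early and tubular basement membranes, had 127 and 151 with the control vector, 323 and 229 with shCaf1 and 600.0 and 512 with shMiwi, and Lama2, the alpha chain of muscle and peripheral nerve, had 102 and 262 with the control vector, 765 and 697 with shCaf1 and 1299 and 1207 with shMiwi. In both, the groups were ordered control, shCaf1, shMiwi without overlap. Their differences between the shRNA groups were 0.98 ± 0.20 (adjusted p = 0.0278) and 0.77 ± 0.14 (adjusted p = 0.0194) in limma.

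Lamb1, the beta chain of many basement membranes, had 1003 and 1056 with shCaf1 and 1309 and 1158 with shMiwi and a difference of 0.26 ± 0.14 (adjusted p = 0.297). Another of its probe sets was called higher, at 1.20 ± 0.22 (adjusted p = 0.0196 in limma), and one more had -0.68 and was not called, so this gene's probe sets disagreed. Lamb3, a beta chain of epithelia, had -0.47 ± 0.27 (adjusted p = 0.326), and Lamc1, the gamma chain of most laminins, had 0.63 ± 0.34 (adjusted p = 0.301). Nid1, which bridges laminin and type IV collagen, had 33.2 and 45.9 with the control vector, 612 and 654 with shCaf1 and 1029.7 and 1065 with shMiwi. On this probe set every shRNA array was far above the control arrays and the shRNA groups did not overlap. Its difference between them was 0.71 ± 0.14 (adjusted p = 0.0243) in limma, although its other tested probe set had -0.24 and was not called. There the control arrays (142 and 74.2) overlapped those of shCaf1 (107 and 85.1) and shMiwi (85.5 and 72.1). The related Nid2 had 0.80 ± 0.25 (adjusted p = 0.0948) and did not pass. The other 4 tested genes of this group, Fbln1, Fbln2, Fbln5 and Fbn2, were not called, with differences of 0.08 to 0.55. Fbn2, a microfibril protein, had 1463 and 1618 with the control vector, 1484 and 1509 with shCaf1 and 1724 and 1964 with shMiwi, close to level across all 6 arrays.

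Of the other matrix genes 1 of 5 tested was higher. Lum, the proteoglycan lumican that spaces collagen fibrils, had 277 and 37.8 with the control vector, 91.2 and 70.4 with shCaf1 and 193 and 182 with shMiwi, and the control arrays enclosed the rest. Its difference between the shRNA groups was 1.08 ± 0.24 (adjusted p = 0.0351) in limma. The remaining 4 were also above 0 but were not called. Sparc, a collagen-binding glycoprotein, had 196 and 514 with the control vector, 8485 and 8115 with shCaf1 and 10921 and 9300.4 with shMiwi and 0.28 ± 0.11 (adjusted p = 0.164). A second Sparc probe set was called at 0.54 ± 0.14 (adjusted p = 0.0477 in limma). Dcn, the proteoglycan decorin, had 371 and 94.1 with the control vector, 2333 and 2157 with shCaf1 and 2641 and 3378 with shMiwi and 0.41 ± 0.14 (adjusted p = 0.118). Fn1, fibronectin, had 0.53 ± 0.17 (adjusted p = 0.0959) and Bgn, biglycan, had 0.30 ± 0.20 (adjusted p = 0.404). Lox, which crosslinks collagen and elastin, did not pass the filter. Its signals were 423 and 129 with the control vector, 5.17 and 4.43 with shCaf1 and 61.9 and 43.3 with shMiwi, with a log2 difference between the shRNA groups of 1.71 that was not tested. Its other probe sets, which did not pass either, had -0.45 and 0.40, so the sign differed between probe sets.

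No MMP or TIMP was called between the shRNA groups. All 4 TIMPs were tested, and 0 passed even an unadjusted p under 0.05 in limma. Timp2, the inhibitor that also helps to activate Mmp2, had 5087 and 5149 with shCaf1 and 5629.6 and 5430.0 with shMiwi, nearly level, with a difference of 0.11 ± 0.10 (adjusted p = 0.567). Timp3, which is held in the matrix, had 775 and 856 with shCaf1 and 1005 and 989 with shMiwi and 0.29 ± 0.14 (adjusted p = 0.25). Of 18 MMPs 8 passed the filter, with differences between -0.51 and 1.05, and 2 had an unadjusted p under 0.05 in limma. The share over all probe sets at that threshold is not given for this fit, so the 2 are not read as a result. Mmp2, a gelatinase, had 0.82 ± 0.25 (adjusted p = 0.0811), and Mmp14, its membrane-bound activator, had 281 and 136 with shCaf1 and 319 and 230.0 with shMiwi and 0.43 ± 0.31 (adjusted p = 0.445). Mmp11, stromelysin 3, had 201 and 151 with shCaf1 and 298 and 242 with shMiwi and 0.58 ± 0.22 (adjusted p = 0.145). Mmp10, stromelysin 2, had the largest difference of the tested MMPs, 1.05 ± 0.47 (adjusted p = 0.216), but from signals of 5.45 and 13.0 with shCaf1 and 31.5 and 39.9 with shMiwi, which are near the bottom of the scale. Mmp24, a membrane-type MMP, had the lowest of the tested MMPs, -0.51 ± 0.61 (adjusted p = 0.667), with replicates as far apart as 94.1 and 8.96 in shMiwi. Mmp20, the enamel protease, did not pass the filter and had 4.63 and 10.2 with shCaf1 and 54.6 and 22.1 with shMiwi, with a larger difference of 1.16 that was not tested.

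The calls were compared with other probe sets of the same genes, which the choice of 1 per gene had left out. Of 44 other tested probe sets, 29 had the sign of the one that represents their gene. In 10 of the 17 genes called higher there were 11 such probe sets, of which 10 were above 0 and 7 were called higher, in 7 genes. The log2 differences of these 7 were 1.87 for Col1a2, 1.91 for Col3a1, 1.78 for Col4a1, 1.68 for Col4a3, 1.94 for Col4a4, 1.04 for Col4a5 and 0.83 for Col18a1. Over all 111 tested probe sets with a matching symbol, 26 were called higher (23.4%, background 3.81%) and 1 lower (0.901%, background 3.52%). Probe sets of a gene share their RNA, so they check the probes and not the samples.

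**Figure D4:**
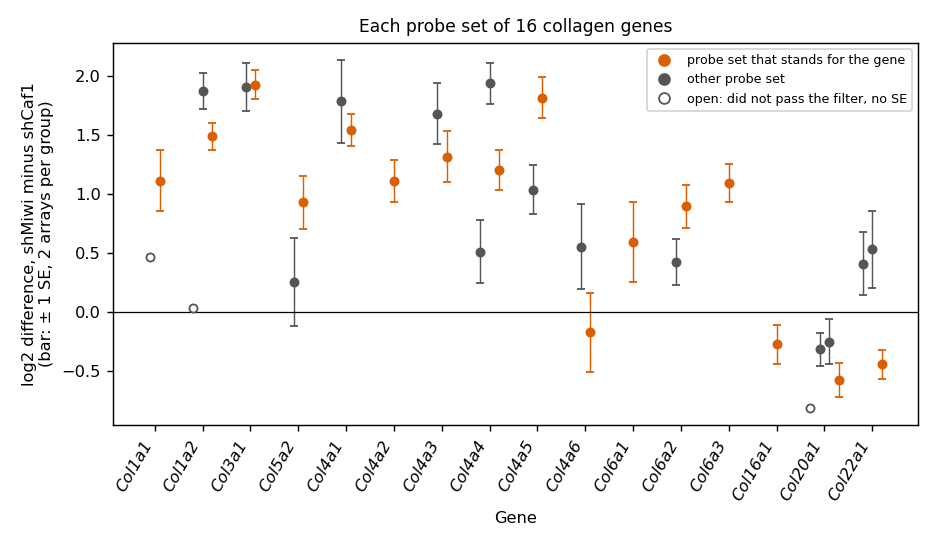
Log2 difference of shMiwi minus shCaf1 (y axis) for each probe set of 16 collagen genes, with bars of 1 SE from limma (2 arrays per group); orange marks the probe set that represents the gene and open points did not pass the filter. All tested probe sets of Col1a2, Col3a1, Col4a1, Col4a3, Col4a4 and Col4a5 lie above 0, while those of Col22a1 and Col4a6 lie on both sides.

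Leaving out 1 array at a time changed how many members were called. With all 4 arrays 18 members (26.9%) were called in either direction, where 7.33% of all tested probe sets were. Without shCaf1 replicate 1 there were 10 (14.9%, background 2.94%) and without shCaf1 replicate 2 there were 6 (8.96%, background 1.02%). Without shMiwi replicate 1 there were 20 (29.9%, background 14.4%) and without shMiwi replicate 2 there were 18 (26.9%, background 8.6%). Col3a1, Col1a2, Col4a1, Col4a4, Col4a5 and Lamb2 were called higher in each of these 4 fits. All 17 had positive differences in each of them, and also under quantile normalization, median centring and hybridization control scaling, where all 17 were called (background 3.29%, 2.85% and 25.5%). On the hybridization control scale the median of all probe sets moved to 0.38 and that of the members to 0.65, with 33 members called higher (49.3%) and 0 lower. Without the filter 11 of the 17 were called (background 0.597%). The 17 were selected by their calls on the same arrays. The shares over all probe sets are therefore no comparison for how many of the 17 stayed called.

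Members that lie next to each other in the genome were compared. Of 15 pairs of members that are direct neighbours in the RefSeq table, 3 had both genes called higher (Col3a1 with Col5a2, Col4a3 with Col4a4 and Col4a1 with Col4a2). A further 3 had 1 gene called (Col6a2 but not Col6a1, Lum but not Dcn, Col4a5 but not Col4a6). Most of the other pairs lie in the MMP cluster, where 1 gene passed the filter.

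Other genes that make, bind or cut matrix were read from 5 lists, with 102 tested genes in all. Of these 19 were higher in shMiwi (18.6%, against a background of 4.47% with 1 probe set per gene) and 2 were lower. Among the enzymes that process collagen 2 of 18 were higher and the median was 0.02. Plod2, a lysyl hydroxylase for collagen crosslinks, had 346 and 325 with shCaf1 and 784 and 755 with shMiwi and 1.16 ± 0.15 (adjusted p = 0.00701) in limma. Pcolce, an enhancer of procollagen cleavage, had 3203 and 3599.8 with shCaf1 and 5764 and 6486 with shMiwi and 0.85 ± 0.12 (adjusted p = 0.00837) in limma. The tested prolyl hydroxylases and the collagen chaperone Serpinh1 were not called. Nearest the threshold in limma were P4ha1 (0.75 ± 0.21, adjusted p = 0.0641) and P3h1 (0.80 ± 0.26, adjusted p = 0.0949). P4ha2 (-0.11) and Serpinh1 (-0.03) were near 0.

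Of 41 tested matrix glycoproteins and proteoglycans 7 were higher and 2 were lower, with a median of 0.27. Agrn, the basement membrane proteoglycan agrin, had 70.2 and 103 with shCaf1 and 302 and 373 with shMiwi, with 1.80 ± 0.24 (adjusted p = 0.00725) in limma. Mfap2, Matn2 and Ltbp1, a microfibril protein, a matrilin and a protein that stores latent TGF-beta, had log2 differences of 1.42, 1.25 and 0.98 (adjusted p = 0.0377, 0.0406 and 0.0182 in limma). Ibsp, the bone sialoprotein, fell furthest of all the listed genes. Its signals were 160.1 and 23.3 with the control vector, 523 and 573 with shCaf1 and 15.7 and 22.9 with shMiwi, so that shMiwi was as low as control replicate 2, and its difference was -4.00 ± 0.24 (adjusted p = 0.000178) in limma. Matn4, another matrilin, was also lower at -1.62 ± 0.38 (adjusted p = 0.0406) in limma.

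Of 25 tested matrix receptors 4 were higher and 0 were lower, with a median of 0.22. They were the laminin receptor chain Itga6 (0.96), the collagen receptor kinase Ddr1 (0.88), Itgav (0.81) and the dystroglycan gene Dag1 (0.52), with adjusted p of 0.0113, 0.0107, 0.0147 and 0.0443 in limma. Of 10 other proteases and inhibitors 4 were higher, with a median of 0.51. These were the aggrecanase Adamts5 (1.07), Adamts9 (0.74), the MMP inhibitor Reck (0.67) and the plasminogen activator Plat (0.63), with adjusted p of 0.00726, 0.0391, 0.0352 and 0.0387 in limma. In TGF-beta signalling, a known inducer of collagen genes, 2 of 8 were higher, the receptor Tgfbr1 (0.58, adjusted p = 0.0377 in limma) and the signal transducer Smad2 (0.91, adjusted p = 0.015).

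Markers of the somatic cells that produce matrix were present in the sorted cells and moved in part with the collagens. Over all 11 cell type lists, 9 of 72 tested markers were higher in shMiwi (12.5%) and 13 were lower (18.1%). The background with 1 probe set per gene was 4.47% higher and 4.83% lower. Of 5 tested fibroblast markers 3 were higher in shMiwi, with a median of 0.87. They were Tcf21 (1.29), Pdgfrb (1.03) and Pdgfra (0.87), with adjusted p of 0.00636, 0.0197 and 0.0116 in limma. Dpt (0.65) and Cd34 (-0.08) were not called (adjusted p = 0.166 and 0.861 in limma). Thy1, with a difference of -0.32 from dim signals, did not pass the filter. The summed signal of the 6 markers was 1655 to 1749 with shCaf1, 3058 to 3128 with shMiwi and 1133 to 2199 with the control vector, without overlap of the shRNA groups. Of 8 peritubular myoid markers 2 were higher (Myh11 and Tagln) and 1 was lower (Actg2), and their sum was 9434 to 9572 with shCaf1, 9322 to 9867 with shMiwi and 4825 to 11368 with the control vector. Of 8 Sertoli markers 2 were higher (Wt1 and Inha), and the sum, most of which is Clu, was 30376 to 30532 with shCaf1, 28866 to 31522 with shMiwi and 4489 to 28233 with the control vector. For both lists the ranges of these sums in the shRNA groups overlapped. The median log2 differences were 0.22 for the myoid and 0.27 for the Sertoli markers, beside 0.26 for the tested matrix members. Some of the markers were dim on the shRNA arrays, such as the Sertoli marker Amh (10.0 and 11.2 with shCaf1, 54.1 and 7.58 with shMiwi).

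Of 6 Leydig markers 1 was higher, with sums of 21094 to 21309 with shCaf1, 24396 to 25387 with shMiwi and 5269.6 to 6527 with the control vector. Of 8 macrophage markers 1 was higher and 1 lower, and their sum was 11991 to 12331 with shCaf1, 10470.3 to 11038 with shMiwi and 2864 to 7129 with the control vector. Of 5 tested endothelial markers 0 were called in limma and 0 had an unadjusted p under 0.05, and the sum was 804 to 884 with shCaf1, 799 to 899 with shMiwi and 2920.1 to 6715 with the control vector. The erythrocyte list had 2 tested genes, of which 0 were called in limma and 0 had an unadjusted p under 0.05. In the opposite direction, 9 of 10 elongating spermatid markers were lower in shMiwi (background 4.83% with 1 probe set per gene), with a median of -0.71. The sums of the 10 were 185489 to 201119 with shCaf1 and 123016 to 132086 with shMiwi. On the hybridization control scale 3 of the 9 were lower, where 0.955% of all probe sets were. Of the earlier germ cell markers, 1 of 7 round spermatid and 1 of 7 pachytene spermatocyte markers were lower in limma. Of 6 spermatogonia markers 0 were called in limma (2 at an unadjusted p under 0.05). On the shRNA arrays the sums of these 3 lists were 46670 to 58017, 79536 to 97015 and 9281 to 11606. Markers of earlier germ cells therefore also gave signal in the sorted cells. The part of these marker differences in the matrix result was not tested.

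**Figure D5:**
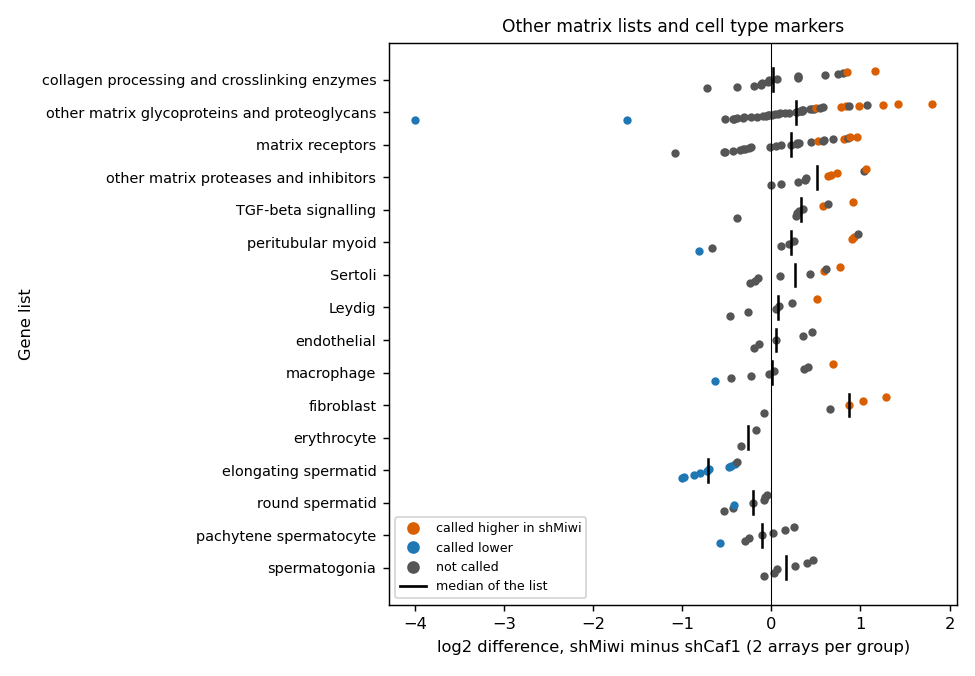
Log2 difference of shMiwi minus shCaf1 (x axis) for each tested gene of 5 matrix-related lists and 11 cell type marker lists (y axis), with the median of each list as a black bar and called genes in colour. The fibroblast median lies at 0.87 and the elongating spermatid median at -0.71, while Ibsp lies far to the left at -4.00.

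Against the control vector the matrix genes moved in both directions, in shares near those of all probe sets. The shRNA groups share the control arrays, so these comparisons are not independent. The choice of probe set favours a rise, so calls were counted over all 111 tested probe sets that match the symbols. The filter, as for all probe sets, took in the control arrays. Probe sets that passed only through those arrays had a fall built in. They include 5 members (for example Mmp10) and are part of the counts and medians below. In the limma fit on all 6 arrays, 21 of them (18.9%) were higher in shMiwi than with the control vector and 29 (26.1%) were lower, where 16.9% and 26.4% of all tested probe sets were. For shCaf1 the counts were 13 higher (11.7%) and 32 lower (28.8%), where 15.5% and 26.0% of all were. The median log2 difference over the 111 probe sets was -0.20 for shMiwi and -0.80 for shCaf1, beside -0.20 and -0.25 over all tested probe sets. Over the 67 tested members, whose probe sets were chosen on the shRNA arrays, it was 0.26 and -0.35, so for shMiwi the sign turned with that choice.

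The counts depended on single arrays and on the scaling. Without control replicate 1 they were 87 of 111 for shMiwi (78.4%, background 79.7%) and 85 for shCaf1 (76.6%, background 78.5%). Without control replicate 2 they were 88 (79.3%, background 84.0%) and 91 (82.0%, background 83.9%). The spread in these fits comes from the shRNA arrays only, and the rise is general to the array. Leaving out 1 shRNA array left 1 array in that group, and the calls of that group against control did not hold. The share over all probe sets is not given for these fits, so this is not read as a result about the matrix genes. A group left with 1 array is assumed to vary like the others. On the hybridization control scale, which moves the median of all probe sets to 3.58 for shMiwi and 3.15 for shCaf1, 101 and 97 were higher and 0 were lower, where 90.4% and 87.6% of all probe sets were higher. Median centring gave 46 higher and 10 lower for shMiwi (background 36.4% and 10.5%) and 37 and 11 for shCaf1 (background 34.5% and 9.55%).

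Members with the largest positive values are given as a description, since their probe sets were chosen on the shRNA arrays. Col4a4 had log2 differences from the control vector of 5.23 with shMiwi and 4.02 with shCaf1. For Col3a1 the values were 4.96 and 3.03, for Sparc 4.91 and 4.63, for Nid1 4.27 and 3.55, for Dcn 3.86 and 3.45 and for Lamb1 4.08 and 3.83. On these probe sets both shRNA groups lay above both control arrays for all 6. On other tested probe sets of these genes this order did not always hold, as described for Col3a1, Col4a4 and Nid1. On the negative side Mmp10 had -3.70 and -4.75, Col11a2 had -3.62 and -3.68, Col25a1 had -3.49 and -3.38, Mmp16 had -3.37 and -3.05 and Mmp17 had -3.31 and -3.41. Mmp10, Col11a2, Mmp16 and Mmp17 passed the filter through the control arrays and would not have passed on the shRNA arrays alone, so a negative value was built into their selection. All 5 genes were dim on the shRNA arrays, for example 47.8 and 56.6 with shCaf1 and 30.9 and 68.2 with shMiwi for Col25a1. On the hybridization control scale all of these negative differences became positive except that of Mmp10 in shCaf1, which was -0.64.

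Some genes differed in their order over the 3 groups. Col6a2 was lower than with the control vector in both shRNA groups (-1.88 and -2.77, adjusted p = 0.0114 and 0.00638 in limma) while it was higher in shMiwi than in shCaf1. Col1a2 and Col4a1 lay above control in shMiwi (1.47 and 1.19), a description only because their probe sets were chosen on the shRNA arrays. In shCaf1 they differed from control by -0.02 and -0.35 and were not called. The other tested Col1a2 probe set also lay above control in shMiwi (1357 and 1233, control 354 and 158). That of Col4a1 overlapped control (498 and 370, control 373 and 592). On the hybridization control scale Col6a2 turned positive against control, with 1.73 in shCaf1 and a larger value in shMiwi, so its direction depends on the scaling, while its order between the shRNA groups did not change.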

How the data were processed

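The values are linear signal intensities of 45101 probe sets on 6 arrays. Per the submitters' processing notes the authors' deposited intensity values were made with MAS5, of a version not given in the sources used here. By its values, every array was scaled to a 2% trimmed mean of 500, so an array with little bright signal is multiplied up. Sample titles gave the groups and replicates.

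The array's 64 own control probe sets stayed out, and signals were taken to log2 after adding 16, which understates the fold change of dim probe sets. Genes were named from the platform annotation, and all 87 symbols matched the mouse RefSeq table (GRCm38.p6). The filter at the 40th percentile of the mean log2 left 27022 probe sets. Of the members, 34 had 1 probe set and 53 had several; 65 passed the same filter over the 4 shRNA arrays. Levels are not compared between probe sets. limma 3.58.1 in R 4.3.3 (lmFit, eBayes with trend) was fitted to the 4 shRNA arrays (2 residual degrees of freedom) and, for the comparisons with control, to all 6 (3 residual degrees of freedom), and was tested on simulated data. Errors are SE of the fit with n = 2 per group, and the number of arrays limits the precision. Promoters were searched with python 3.11.15.

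The members and lists were chosen with earlier results of these data known. Named genes are every member called between the shRNA groups or at least 2-fold apart without overlap, the 2 members per role group with the highest mean on the shRNA arrays, the 4 with the largest positive and negative differences in each comparison, and up to 4 called genes in each direction of each list. Bgn, Col2a1, Col6a1, Col7a1, Col8a1, Col8a2, Fbln1, Fbln2, Fbln5, Fn1, Lamc1, Mmp2 and Nid2 were named after their values were seen. So were the uncalled list genes P4ha1, P4ha2 and P3h1. Alternatives varied the added constant, filter, scaling, trend, threshold, choice of probe set, arrays and a replicate block; the count over all matching probe sets was added after seeing the data.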

Additional observations from a re-analysis of the deposited data

How the results depend on the processing

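With 2 arrays per group the calls rest on variance shared across probe sets. For shMiwi against shCaf1, 18 members were called, and the count became 11 without the filter, 33 with hybridization control scaling, 0 without the intensity trend, 0 with all 6 arrays in 1 model and 28 with the replicate number as a block (where calls over all probe sets also rose, to 10.9% higher and 9.32% lower), and 6 to 20 when 1 array was left out. The members' median of 0.26 became 0.65 with hybridization control scaling. The other settings kept the count within 1.5 times.

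The replicate numbers are shared labels only: deviations of same-numbered arrays correlated at 0.181 between shCaf1 and shMiwi, 0.061 between control and shCaf1 and 0.004 between control and shMiwi. The replicate block gave 44 and 42 calls against control, where 50 and 45 were reported. Over all tested probe sets the block gave 14.7% higher and 23.8% lower for shMiwi, and 13.3% and 23.1% for shCaf1.

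Against control, the 60th percentile filter, which tests fewer probe sets, gave 26 calls for shMiwi and 24 for shCaf1. Its share over all probe sets is not given, so these counts are not read as a result about the matrix genes. Hybridization control scaling gave 101 and 97 (background 90.4% and 87.6% higher). With 1 probe set per gene there were 27 of 67 for shCaf1 (background 39.0%). Leaving out 1 array gave 0 to 88 and 0 to 91. The median for shMiwi, reported as 0.26, became -0.61 without the filter, 0.51 with the filter over the shRNA arrays, 1.03 with the 60th percentile, 0.55 with quantile normalization, 1.84 with median centring, 3.51 with hybridization control scaling, -0.13 with probe sets chosen over all 6 arrays and -0.27 to 0.33 when 1 array was left out. The median for shCaf1, reported as -0.35, became in the same order -0.99, -0.040, 0.50, 0.41, 1.22, 2.67, -0.73 and -0.40 to 0.032. The cause was not tested.

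Of the named members between the shRNA groups, hybridization control scaling turned Col16a1 to 0.12, Col23a1 to 0.26, Col25a1 to 0.19 and Col6a4 to 0.25. When 1 array was left out, the sign turned within the range of -0.15 to 0.27 for Col11a2, -0.25 to 0.051 for Col23a1, -0.54 to 0.31 for Col25a1, -0.052 to 0.91 for Mmp14, -0.72 to 0.088 for Mmp16, -0.28 to 0.48 for Mmp17 and -1.58 to 0.56 for Mmp24, none of which were called. In all, 434 of the alternative values of named members kept direction and call, 53 lost the call, 16 gained one and 13 changed sign.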
